A study of Mus musculus with 2 samples.

Results

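Collagens are the extracellular proteins built around the collagen triple helix, and their genes were compared between neural stem cells with and without a knockdown aimed at Ccdc25. The members are the rows of the deposited count table that are marked protein-coding and whose symbol reads Col, digits, a, digits (Col1a1, for example). The rule found 42 of the 19595 genes in the table: 11 fibrillar chains, 8 chains of basement membranes and 23 others. No measured value entered the rule.

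The series holds 2 libraries of messenger RNA. Both come from neural stem cells that were taken from the brain of ICR mice on embryonic day 13. The control library is labelled psicor with the genotype WT, and the knockdown library is labelled sh1 with the genotype KO. The series title names CCDC25, and its design text mentions triplicates, whereas the table has 1 column of counts per group. No difference below therefore has a replicate check, none was tested, and the labels do not tell whether a column is a single culture or a pool. The table assigned 16549682 (control) and 16058407 (knockdown) counts. Levels are given in CPM, which are counts put on a common scale of library size, and a ratio is knockdown over control. Where values stand side by side without a label, that of the control comes first. Each 95% interval is an exact binomial (Clopper-Pearson) interval of the ratio that covers counting error only. Ccdc25 itself, the targeted gene, stood at 32.8 CPM (control) and 26.1 CPM (knockdown), a ratio of 0.794 (0.697 to 0.904).

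A collagen chain carries long stretches in which glycine alternates with a pair of other residues, often prolines, and its chains wind around each other into a stiff helix. Fibrillar collagens assemble into the fibres of connective tissue. Basement membrane collagens form sheets under epithelia, around vessels and at the surface of the brain, where the endfeet of radial glia attach. Among the others, fibril-associated collagens decorate the surface of fibres and have interrupted helices, and transmembrane collagens are anchored in the cell. In the brain, most fibrillar collagen is made by meningeal and vascular cells, although neural cells express several of the less abundant types.

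The classes can be read from the genes themselves. The stretches below show the coding strand of a member of each class, with the in-frame glycine codons of the repeat in capitals. They are exonic, from GENCODE M21 transcripts on GRCm38. The Col1a1 stretch (chr11:94945527-94945828, plus strand, exons 31 and 32 of 51) lies in the middle of an uninterrupted repeat. The Col4a1 stretch (chr8:11244534-11245237, minus strand, exons 7 to 9 of 52) and the Col9a3 stretch (chr2:180615561-180615829, plus strand, exons 29 and 30 of 33) show where a repeat ends.
Col1a1: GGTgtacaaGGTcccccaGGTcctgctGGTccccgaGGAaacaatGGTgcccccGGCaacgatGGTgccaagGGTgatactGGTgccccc
Col4a1: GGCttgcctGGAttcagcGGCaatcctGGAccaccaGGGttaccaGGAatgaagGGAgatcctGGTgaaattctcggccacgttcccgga
Col9a3: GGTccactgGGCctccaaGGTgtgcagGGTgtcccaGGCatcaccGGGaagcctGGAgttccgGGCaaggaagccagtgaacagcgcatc
In the longest coding sequence of each fibrillar member, the longest unbroken repeat ran from 216 to 344 triplets of codons. Col24a1 and Col27a1 had 216 and 217, and the other 9 had 337 to 344. The longest repeat was 30 to 66 triplets in the basement membrane class and 23 to 113 in the others. The domain that the deposited table lists for each gene followed the same lines. The table lists the fibrillar C-propeptide domain (COLFI) for all 11 fibrillar members, the type IV domain (C4) for 6 of the basement membrane class and endostatin for the remaining 2, Col15a1 and Col18a1. Of the others, 11 are listed with a von Willebrand factor A domain (VWA), 9 with a collagen repeat, 2 with a C1q domain and 1 with an EMI domain.

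All collagens together made up 555 CPM (control) and 721 CPM (knockdown), a ratio of 1.30 (1.26 to 1.34), and the classes differed in direction. The fibrillar class was lower in the knockdown library, with 215 and 173 CPM and a ratio of 0.808 (0.768 to 0.849). The basement membrane class stood at 175 CPM (control) and 177 CPM (knockdown), a ratio of 1.01 (0.958 to 1.06). The remaining collagens were higher, with 165 and 371 CPM and a ratio of 2.25 (2.15 to 2.35). The share of all collagen counts that belonged to the fibrillar class was 38.7% (control) and 24.1% (knockdown), and that of the others was 29.7% and 51.4%.

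A few genes held most of these differences, given here as shares of counts, which also depend on gene length. Col9a3 and Col16a1, both fibril-associated, took 15.5% of the collagen counts (control) and 40.4% (knockdown). The class of others without this pair, left out after its values were seen, measured 79.2 and 79.6 CPM. That is a ratio of 1.01 (0.930 to 1.09), and the sum combines members of both directions. Of its 12 members past a mean of 1 CPM, 3 were higher by 2-fold or more and 3 lower (25% each). The shares over all genes were 7.64% and 7.76%. Among the members called, Col9a1, Col8a1 and Col25a1 passed the minimum only through the library where they were higher, so the 25% partly reflects the filter. Within the fibrillar class, types I and III made up 10.6% of the collagen counts (control) and 2.35% (knockdown), and types V and XI 26.3% and 17.1%.

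**Figure D1:**
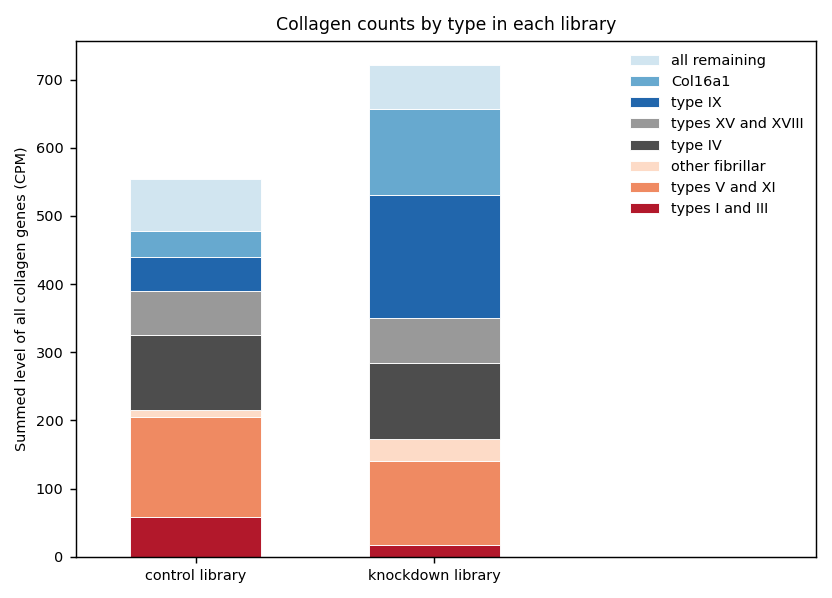
Summed level of all 42 collagen genes in CPM in each library, split by type, without error bars because each group is 1 library. The total was 555 CPM (control) and 721 CPM (knockdown), the type IX and Col16a1 segments were taller in the knockdown library, and the segment of types I and III was shorter.

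Averaged over both libraries, 30 of the 42 members reached a minimum of 1 CPM: 10 fibrillar, 6 of the basement membrane class and 14 others. Of the 30, 7 were higher in the knockdown library by 2-fold or more (23.3%) and 6 were lower by as much (20.0%), against 7.64% and 7.76% of the 14158 genes past the same minimum. The median log2 fold of the 30 was 0.05, beside -0.0042 over all genes, so the members spread to both sides. Col9a1, Col8a1 and Col25a1 were below 1 CPM in 1 of the libraries and passed only through the other. Less abundant genes differed more often in these libraries. Of the 15 members from 1 to 10 CPM, 9 lay beyond 2-fold (4 higher, 5 lower), against 29.8% of all genes in that range. Of the 15 members of at least 10 CPM, 4 did (3 higher, 1 lower), against 9.78% of such genes. The interval lay above a ratio of 1 for 10 members and below it for 10 (33.3% each), beside 33.2% and 33.6% of all genes, which is the background share.

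**Figure D2:**
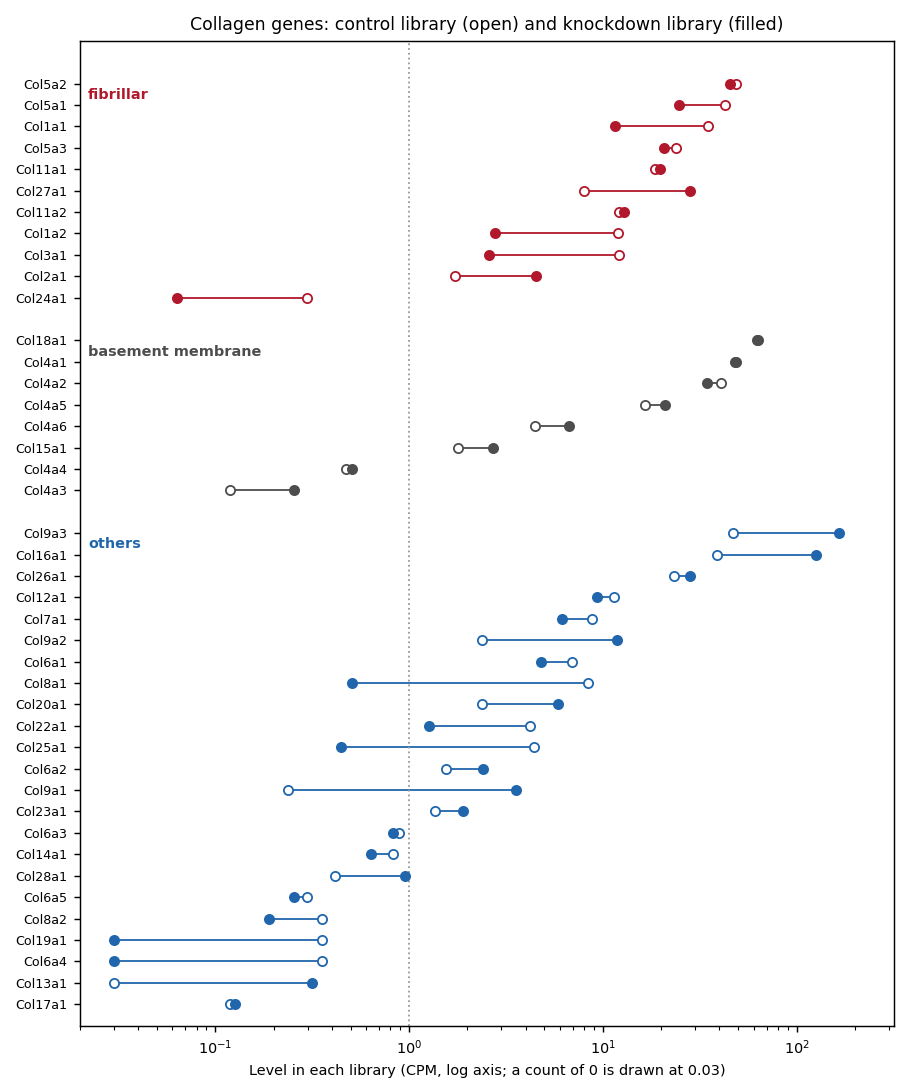
Level of each of the 42 collagen genes in CPM on a log axis, in the control library (open) and the knockdown library (filled), by class and listed by mean CPM, which is not corrected for gene length. A count of 0 is drawn at the left edge of the points, and the dotted line is the minimum of 1 CPM. The 6 upper basement membrane genes have nearly coincident or close points, while members of both other classes are far apart in both directions.

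Types I and III, the main collagens of connective tissue fibres, were lower in the knockdown library in all their chains. Col1a1 (ENSMUSG00000001506, chromosome 11, 94936224 to 94953042, plus strand) had 585 (control) and 182 (knockdown) counts. These are 34.7 and 11.5 CPM, a ratio of 0.332 (0.280 to 0.393). Its partner in the type I molecule, Col1a2 (ENSMUSG00000029661, chromosome 6, 4504814 to 4541544, plus strand), had 201 and 44 counts, or 11.9 and 2.79 CPM, a ratio of 0.234 (0.165 to 0.326). Col3a1 (ENSMUSG00000026043, chromosome 1, 45311538 to 45349706, plus strand), the single chain of type III and a known ligand of the receptor Adgrg1 in the developing cortex, had 204 and 41 counts, or 12.1 and 2.6 CPM, a ratio of 0.215 (0.150 to 0.302). The intervals of the 3 ratios overlap one another, and each lies below 0.5.

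The markers of meningeal fibroblasts and mesenchyme were divided. Of the 14 on the list 12 are in the table and 8 passed the minimum, of which 4 were lower by 2-fold or more (50%) and 2 higher (25.0%), beside 7.76% and 7.64% of all genes. The median of their log2 folds was -0.92. The summed level of the list was 425 CPM (control) and 289 CPM (knockdown), but Acta2, a contractile gene of smooth muscle, held this drop with 261 and 22.8 CPM. Without Acta2, left out after its value was seen, the sum was 164 and 266 CPM, while the median log2 fold was still below 0, at -0.61. That rise in the sum lay in Thy1 and Pdgfra, which outweighed the lower markers. The other lower markers past the minimum were Postn, a matrix protein of fibroblasts, with 84 and 6 counts, the proteoglycan gene Dcn with 90 and 12, and Fbln1 with 1532 and 613. Postn and Dcn were below 1 CPM in the knockdown library and passed only through the control library. The higher markers were Thy1, at 32.0 and 93.8 CPM, and Pdgfra, at 15.8 and 122 CPM, which neurons and oligodendrocyte precursors also express. Foxc1 and Prrx1 lay within 2-fold. Under the minimum, Lum had 27 and 0 counts, the mesenchymal transcription factor Twist1 27 and 3, Aldh1a2 20 and 2, and Tbx18 5 and 0. The part of these cells in the lower type I and III counts was not tested, and fewer such cells cannot be told apart from less RNA per cell in bulk libraries.

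Types V and XI, minor chains that join type I or type II fibres and limit their width, all lay within 2-fold. Col5a1 was the furthest, at 42.5 CPM (control) and 24.7 CPM (knockdown), a ratio of 0.581 (0.512 to 0.658). Col5a2, the chain that joins Col5a1 in type V, measured 49.0 and 45.6 CPM, with a ratio of 0.931 (0.841 to 1.03). Col5a3 had 401 and 327 counts, a ratio of 0.871 (0.751 to 1.01). The type XI chains Col11a1 and Col11a2 had 313 and 311 counts and 204 and 203 counts, with ratios of 1.06 (0.905 to 1.25) and 1.06 (0.871 to 1.30). The intervals of all these chains other than Col5a1 held a ratio of 1.

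A pair of fibrillar genes went the other way. Col27a1 (ENSMUSG00000045672, chromosome 4, 63214004 to 63334991, plus strand), with its shorter repeat one of the divergent fibrillar chains, had 135 (control) and 447 (knockdown) counts, or 8.01 and 28.3 CPM, a ratio of 3.54 (2.91 to 4.32). Col2a1, the main collagen of cartilage and of the embryonic notochord, had 29 and 71 counts, or 1.72 and 4.50 CPM, a ratio of 2.62 (1.68 to 4.18). Without Col27a1, left out after its value was seen, the fibrillar total was 207 CPM (control) and 145 CPM (knockdown). That is a ratio of 0.702 (0.666 to 0.740). Col24a1, the last fibrillar member, had 5 and 1 counts and did not pass the minimum, and its ratio of 0.214 has an interval from 0.0045 to 1.91.

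**Figure D3:**
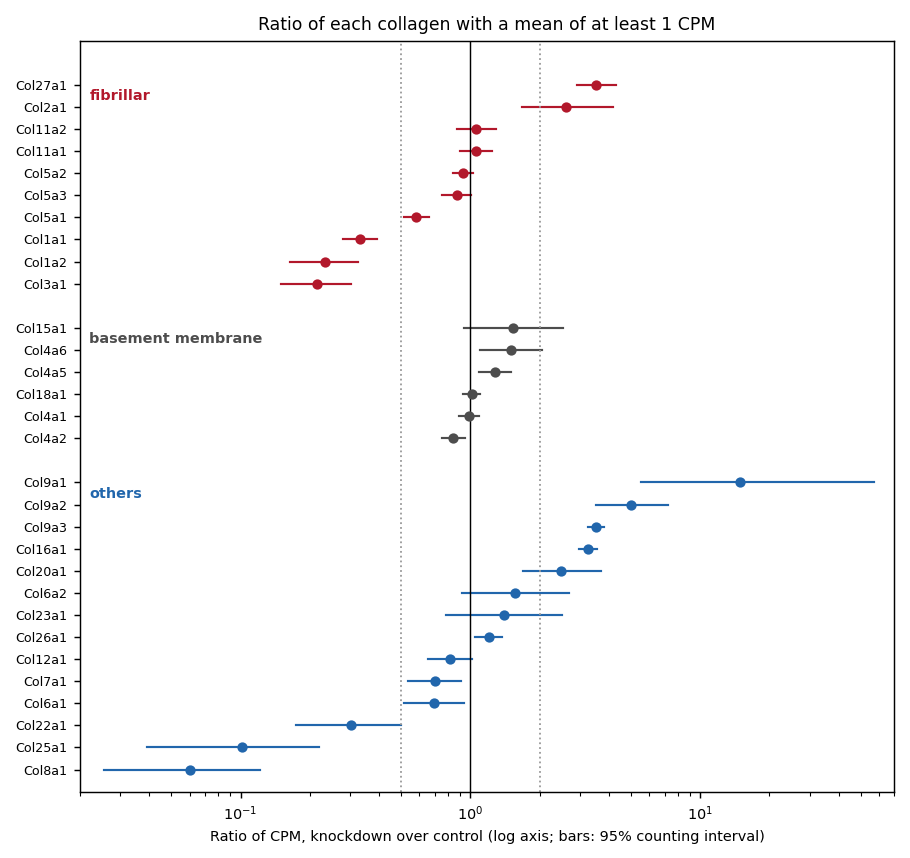
Ratio of CPM, knockdown over control, on a log axis for the 30 collagens with a mean of at least 1 CPM, with 95% counting intervals as bars and 2-fold marked by dotted lines. The 6 basement membrane genes lie between 0.844 and 1.53, the fibrillar class runs from 0.215 (Col3a1) to 3.54 (Col27a1), and the others from 0.0602 (Col8a1) to 15.0 (Col9a1).

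None of the 6 basement membrane collagens past the minimum was 2-fold higher or lower. Most genes lay within 2-fold as well (84.6% of all genes past the minimum), so this count does not set the class apart. The median log2 fold of the 6 was 0.19, or -0.0019 over those of at least 10 CPM. Col18a1, whose C-terminal fragment is endostatin, had 1048 (control) and 994 (knockdown) counts, or 62.2 and 63.0 CPM, a ratio of 1.01 (0.928 to 1.11). Col4a1 (ENSMUSG00000031502, chromosome 8, 11198423 to 11312826, minus strand) and Col4a2 (ENSMUSG00000031503, chromosome 8, 11312805 to 11449287, plus strand) are the chains of the common type IV network. Col4a1 had 821 and 756 counts, a ratio of 0.984 (0.890 to 1.09), and Col4a2 690 and 545, a ratio of 0.844 (0.753 to 0.946). The direction of Col18a1 turned with the scaling of the libraries, within its counting error.

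The X-linked type IV chains and type XV were slightly above their control level. Col4a5 stood at 16.4 CPM (control) and 21 CPM (knockdown), a ratio of 1.28 (1.09 to 1.5). Col4a6 measured 4.45 and 6.66 CPM, with a ratio of 1.5 (1.10 to 2.04). Col15a1, the close relative of Col18a1, had 30 and 43 counts, a ratio of 1.53 (0.939 to 2.53). Col4a3 and Col4a4, the type IV chains of mature kidney and lung membranes, had 2 and 4 counts and 8 and 8 counts and did not pass the minimum.

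Endothelial cells make much of the brain's type IV collagen, and 6 of 8 of their markers are in the table and 2 passed the minimum, with the summed level of the list at 5.52 CPM (control) and 2.66 CPM (knockdown). Cdh5, which defines endothelium, had 7 and 0 counts, and Pecam1 8 and 9. Of the 8 pericyte markers 6 are in the table, with a sum of 125 and 255 CPM. Most of this sum was Cspg4, at 43.9 and 99.6 CPM, and Notch3, at 78.2 and 149 CPM. Cspg4 is also on the list of oligodendrocyte precursor markers. The 3 that passed the minimum were all above their control level: Pdgfrb, with 19 and 81 counts, and Cspg4, with 739 and 1571, by 2-fold or more, and Notch3, with 1317 and 2357, by less. The other 3 had at most 10 counts in either library, with Vtn at 10 and 5 and Rgs5 at 8 and 7. The macrophage and microglia list, with 9 of 10 markers in the table, stood at 42.1 and 12.1 CPM in sum, from Adgre1 with 87 and 1 counts to Cd68 with 215 and 151. The choroid plexus and ependyma list, with 5 of 8 in the table, stood at 91.8 and 153 CPM, of which Foxj1, a gene of ciliated cells, made up 79.8 and 145 CPM. The median of its 3 markers past the minimum was a log2 fold of -0.26, Ttr had 8 and 1 counts, and without Foxj1, left out after its value was seen, the sum was 12 and 8.88 CPM. The part of these cells in the collagen counts was not tested.

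Of the 9 fibril-associated collagens, which lie on the surface of fibres, 7 passed the minimum, of which 5 were higher by 2-fold or more (71.4%, beside 7.64% of all genes) and 1 was lower by as much (14.3%, beside 7.76%). This grouping was made after values were seen, so the counts only describe it, and Col9a1 passed only through the knockdown library. The summed level of the 9 was 108 CPM (control) and 324 CPM (knockdown). All chains of type IX, which in cartilage coats type II fibres, were higher. Col9a3 (ENSMUSG00000027570, chromosome 2, 180597790 to 180622189, plus strand) had 790 and 2605 counts, or 46.9 and 165 CPM, a ratio of 3.52 (3.25 to 3.82). Col9a2 (ENSMUSG00000028626, chromosome 4, 121039385 to 121055322, plus strand) had 40 and 187 counts, or 2.37 and 11.9 CPM, a ratio of 5.0 (3.54 to 7.22). Col9a1 (ENSMUSG00000026147, chromosome 1, 24177610 to 24252684, plus strand) had 4 and 56 counts, or 0.237 and 3.55 CPM, a ratio of 15.0 with a wide interval (5.53 to 56.8). Col9a3 shares 234 exonic bases (6.07% of its exons) with Tcfl5 on the opposite strand, and Tcfl5 had 34 and 37 counts. No other single overlap of a member past the minimum took more than 1.54% of its exons.

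Col16a1 and Col20a1 were higher as well, and Col22a1 was lower. Col16a1 (ENSMUSG00000040690, chromosome 4, 130047840 to 130099283, plus strand), a chain found in small amounts beside fibres and in basement membrane zones, had 656 and 1989 counts, or 38.9 and 126 CPM, a ratio of 3.24 (2.96 to 3.54). Col20a1 had 40 and 93 counts, a ratio of 2.48 (1.70 to 3.70), and shares 79 exonic bases on its strand with a transcript that had 68 and 75 counts. Col22a1, known from tissue junctions such as those of muscle and tendon, had 71 and 20 counts, or 4.21 and 1.27 CPM, a ratio of 0.301 (0.174 to 0.50). Col12a1, which bridges fibres in dense connective tissue, had 193 and 147 counts, a ratio of 0.814 (0.652 to 1.01). Col14a1 had 14 and 10 counts and Col19a1 6 and 0, and neither passed the minimum.

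Markers of oligodendrocyte precursors and of astrocytes moved with type IX and Col16a1. All 10 oligodendrocyte markers on the list passed the minimum, 8 of them higher by 2-fold or more (80%) and 0 lower. The shares over all genes were 7.64% and 7.76%. The summed level of this list was 2935 CPM (control) and 4779 CPM (knockdown). All 10 astrocyte markers passed, 6 were higher (60%, beside 7.64% of all genes) and 0 lower, at 758 and 5864 CPM. Among those 6, S100b and Agt were below 1 CPM in the control library and passed only through the knockdown library. From one end of each list to the other, Olig2 stood at 1087 and 1401 CPM and Gpr17 at 2.67 and 234 CPM, and Slc1a2 at 32.6 and 46.1 CPM and Gfap at 3.09 and 481 CPM. Sox10, a transcription factor of the oligodendrocyte lineage, stood at 11.3 and 237 CPM. The neural stem cell markers, which name the labelled cell type, were all present (Sox2 at 288 and 476 CPM, Nes at 708 and 806 CPM). Of the 10, 2 passed 2-fold upward (20%, beside 7.64% of all genes), and the list summed to 6438 and 8248 CPM. The ends of that list were Hes1, at 58.3 and 35.0 CPM, and Hes5, at 13.8 and 45.7 CPM. The part of these cells in the type IX and Col16a1 counts was not tested.

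Outside the fibril-associated group, the 2 collagens past the minimum with the largest absolute log2 folds were lower in the knockdown library. Col8a1 (ENSMUSG00000068196, chromosome 16, 57624258 to 57754737, minus strand), a short-chain network collagen of vessel walls and of the corneal membrane, had 142 (control) and 8 (knockdown) counts, or 8.43 and 0.507 CPM, a ratio of 0.0602 (0.0255 to 0.122). Its partner Col8a2 had 6 and 3 counts. Col25a1 (ENSMUSG00000058897, chromosome 3, 130131501 to 130599877, plus strand), a transmembrane collagen of neurons first known from amyloid plaques, had 74 and 7 counts, or 4.39 and 0.444 CPM, a ratio of 0.101 (0.0393 to 0.219). The neuron markers stood at 2736 and 1178 CPM in sum. Of the 10, 8 were lower by 2-fold or more (80%, beside 7.76% of all genes) and 0 higher. They ran from Reln with 758 and 45 counts to Map2 with 8239 and 8314. Their part in the Col25a1 count was not tested. Of the other transmembrane chains, Col23a1 had 23 and 30 counts, a ratio of 1.39 (0.783 to 2.51), Col17a1 2 and 2, and Col13a1 0 and 5.

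The microfibril-forming type VI chains and the remaining types lay within 2-fold where they passed the minimum. Col6a1 had 117 and 76 counts, a ratio of 0.694 (0.513 to 0.934), and Col6a2 26 and 38, a ratio of 1.56 (0.924 to 2.68). Col6a3, without which the usual type VI molecule does not form, had 15 and 13 counts, Col6a5 5 and 4, and Col6a4 6 and 0, all under the minimum. Col7a1, the anchoring fibril collagen of skin, had 148 and 97 counts, a ratio of 0.700 (0.537 to 0.911). Col26a1 had 395 and 444 counts, a ratio of 1.2 (1.05 to 1.38), and Col28a1, under the minimum, had 7 and 15 counts. A gene at 0 counts may hold up to 3 counts, which is 0.178 CPM (control) and 0.190 CPM (knockdown), so no fold is given for Col6a4, Col13a1 and Col19a1.

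The order of levels among genes was taken per length, as CPM per kilobase of exon, counting every base that is exonic in any GENCODE M21 transcript of the gene. On this scale the order in the control library began with Col9a3 at 12.2, Col18a1 at 8.86, Col4a1 at 6.53, Col4a2 at 6.19, Col16a1 at 5.77 and Col1a1 at 5.29. In the knockdown library it began with Col9a3 at 42.9, Col16a1 at 18.7, Col18a1 at 8.98, Col4a1 at 6.42, Col4a2 at 5.22 and Col5a2 at 4.75. Col1a1 stood at 1.76 there. Col9a3 was thus the collagen with the highest level per kilobase in both libraries.

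Chains of 1 molecule differed in how closely they kept their relative levels, all per kilobase of exon. The size of each quotient depends on exon lengths that count bases of any transcript, such as 6563 for Col1a1 and 12426 for Col1a2. The change of a quotient between libraries does not depend on them. The level of Col11a1 over that of Col11a2 was 0.828 (control) and 0.826 (knockdown). Col4a1 over Col4a2 was 1.06 and 1.23. Col1a1 over Col1a2 was 5.51 and 7.83, and Col5a1 over Col5a2 0.980 and 0.611. Of type IX, Col9a2 stood at 0.0630 of the level of Col9a3 (control) and 0.0894 (knockdown), and Col9a1 at 0.00385 and 0.0163. The type IX chains were therefore present at very unequal levels in both libraries, with Col9a3 far above its partners. Col6a1 stood at 8.55 times the level of Col6a2 in the control and 3.80 times in the knockdown library.

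Several collagens are neighbours in the genome, and their differences were compared pair by pair. Col4a1 and Col4a2 lie head to head and their first exons overlap by 22 bases, and their log2 folds were -0.02 and -0.24. Col4a5 and Col4a6 on the X chromosome start 1309 bases apart in opposite directions, with log2 folds of 0.35 and 0.58. In contrast, Col3a1 and Col5a2, which meet with their ends 24614 bases apart on chromosome 1, had log2 folds of -2.21 and -0.10. Col9a1 and Col19a1, whose ends lie 9205 bases apart on the same chromosome, had 4 and 56 counts and 6 and 0 counts. Col6a1 and Col6a2, which lie 85161 bases apart on chromosome 10, had log2 folds of -0.52 and 0.63. Col4a3 and Col4a4, which start 72 bases apart, had too few counts to compare. The head-to-head pairs differed from each other by 0.22 and -0.23 on the log2 scale, and Col3a1 and Col5a2 by -2.10.

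The upstream sequences of 4 members are shown, those of the highest and the lowest ratio past the minimum in the fibrillar class (Col27a1 and Col3a1) and among the others (Col9a1 and Col8a1), because they mark the ends of both ranges. RefSeq promoter windows on GRCm38.p6 were found for 33 of the 42 members (36 windows), and the 250 bases before the start were searched on both strands for the TATA box TATAAA, the CCAAT box, the GC box GGGCGG and the SOX cores ACAAAG and ACAATG, none of which contains another. The 4 windows printed hold no annotated exon. Each precedes a RefSeq start, which for Col27a1 lies inside the span given above for that gene (63214004 to 63334991). Its window is therefore within the gene and not before its outermost start. The windows are Col9a1 (chr1:24177360-24177609, plus strand), Col27a1 (chr4:63215162-63215411, plus strand), Col3a1 (chr1:45311288-45311537, plus strand) and Col8a1 (chr16:57754738-57754987, minus strand), each 5′ to 3′ toward the RefSeq start with motif matches in capitals.
Col9a1: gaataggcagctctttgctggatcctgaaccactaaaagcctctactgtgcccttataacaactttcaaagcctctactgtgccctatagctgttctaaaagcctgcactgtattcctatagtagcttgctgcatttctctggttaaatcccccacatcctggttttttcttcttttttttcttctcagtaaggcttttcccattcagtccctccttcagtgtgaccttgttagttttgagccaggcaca
Col27a1: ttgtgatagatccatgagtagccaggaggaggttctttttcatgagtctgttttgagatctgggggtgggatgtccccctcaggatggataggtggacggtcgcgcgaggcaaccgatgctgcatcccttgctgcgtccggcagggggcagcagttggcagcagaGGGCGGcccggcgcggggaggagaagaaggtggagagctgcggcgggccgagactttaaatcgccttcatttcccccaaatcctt
Col3a1: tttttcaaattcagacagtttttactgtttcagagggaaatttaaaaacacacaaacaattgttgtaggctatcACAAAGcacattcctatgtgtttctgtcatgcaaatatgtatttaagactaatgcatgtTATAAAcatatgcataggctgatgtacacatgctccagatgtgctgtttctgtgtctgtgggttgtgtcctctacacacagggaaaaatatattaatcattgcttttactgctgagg
Col8a1: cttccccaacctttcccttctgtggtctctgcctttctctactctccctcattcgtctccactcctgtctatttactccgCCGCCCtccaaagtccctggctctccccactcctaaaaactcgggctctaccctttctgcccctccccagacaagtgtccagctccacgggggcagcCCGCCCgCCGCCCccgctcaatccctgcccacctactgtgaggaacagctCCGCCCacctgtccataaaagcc
The Col8a1 window holds 4 GC boxes and the Col27a1 window 1, while the Col3a1 window holds a TATAAA and an ACAAAG match and the printed Col9a1 window none of the 5. A second Col9a1 window (chr1:24194953-24195202, not printed, 16 exonic bases) lies inside the span of that gene and holds a CCAAT box. G and C made up 60.8% of the Col8a1, 59.6% of the Col27a1, 43.6% of the Col9a1 and 35.2% of the Col3a1 window. GGGCGG occurred in 58.3% of the collagen windows and in 32.7% of all 32817 windows, CCAAT in 36.1% and 33.8%, TATAAA in 11.1% and 12.4%, ACAAAG in 8.33% and 16.5% and ACAATG in 2.78% and 10.7%. A match is a string of letters and not a binding site.

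All 23 synthesis and secretion genes passed the minimum, with 2 of them higher by 2-fold or more (8.70%), 3 lower (13%) and 18 in between (78.3%), close to the 7.64%, 7.76% and 84.6% of all genes. The median of their log2 folds was -0.07. P4ha3, an isoform of the catalytic subunit of prolyl 4-hydroxylase, stood at 5.46 CPM (control) and 53.8 CPM (knockdown), a ratio of 9.85 (7.94 to 12.4). Plod1, a lysyl hydroxylase, measured 66.6 and 196 CPM, with a log2 fold of 1.56. Creb3l1, a transcription factor of collagen secretion in bone, had a log2 fold of -1.26, the prolyl 3-hydroxylase P3h2 -1.06, and Fkbp14, a folding enzyme, -1.05 (named after its value was seen). The collagen chaperone Serpinh1, also named after its value was seen, stood at 458 and 436 CPM.

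Genes that trim and cross-link secreted collagen were lower by 2-fold or more in greater number than higher, although their summed level was higher. Of 14 genes 11 passed the minimum, 1 was at least 2-fold higher (9.09%) and 5 were lower (45.5%), beside 7.64% and 7.76% of all genes. The median of their log2 folds was -0.37. The summed level of the 14 was 285 CPM (control) and 359 CPM (knockdown), a ratio of 1.26 (1.22 to 1.31). Pxdn, named after its value was seen, was among the more abundant genes of the list, at 57.3 and 97.5 CPM. Pcolce, which speeds removal of the fibrillar C-propeptide, had 307 and 53 counts, a log2 fold of -2.43. The cross-linking oxidases Loxl2 and Lox had 146 and 25 and 84 and 16 counts, log2 folds of -2.43 and -2.26, and Adamts3, a protease of the N-propeptide, -1.88. Bmp1, the C-propeptide protease itself, named after its value was seen, measured 110 and 191 CPM, with a log2 fold of 0.80, and Loxl3, also named so, was the 1 higher gene, at 7.83 and 17.1 CPM.

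Of the collagen receptors 10 of 11 are in the table and 8 passed the minimum. At 2-fold or more, 2 were higher (25.0%) and 1 lower (12.5%), beside 7.64% and 7.76% of all genes. The median of their log2 folds was 0.59. Itga2, a collagen-binding integrin chain, measured 7.30 and 22.5 CPM, with a log2 fold of 1.62, and Lair1, an inhibitory receptor of leukocytes, had 15 and 44 counts. Lair1 was below 1 CPM in the control library and passed only through the knockdown library. Ddr2, a receptor kinase for fibrillar collagen that mesenchymal cells carry, had 66 and 20 counts, a log2 fold of -1.60. Adgrg1, the receptor of Col3a1, stood at 560 CPM (control) and 1110 CPM (knockdown), a log2 fold of 0.99. Ddr1, the epithelial and oligodendrocyte relative of Ddr2, was named after its value was seen and stood at 520 and 999 CPM.

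Of 13 genes of collagen breakdown 10 are in the table and 8 passed the minimum, 1 at least 2-fold higher and 0 lower. The 87.5% within 2-fold is close to the 84.6% of all genes. The median of their log2 folds was -0.02. Timp3, an inhibitor of matrix proteases bound to the matrix, measured 6.29 and 16 CPM, with a log2 fold of 1.34, and the gelatinase Mmp2 had -0.48, Timp1 -0.37 and Mmp14, the membrane-bound collagenase, 0.21. Of the small proteoglycans that bind fibrils, 6 of 8 are in the table and 3 passed the minimum: Dcn at a log2 fold of -2.76, Bgn at -0.37 and Prelp at 1.12. The other basement membrane proteins, 12 genes all past the minimum, had 1 member at least 2-fold higher (8.33%) and 3 lower (25.0%). The shares over all genes were 7.64% and 7.76%, so the higher share is near the background. The median of their log2 folds was -0.63. The laminin chains Lama1, Lama2 and Lamb1 had log2 folds of -2.48, -1.36 and -1.0, and Agrn, a heparan sulfate proteoglycan, 1.21. The laminin chains Lamb2 and Lama5, named after their values were seen, were higher, at 0.87 and 0.34. In all, 8 of the 12 genes were below their control level and 4 above it. The summed level of the list was nevertheless higher, at 1379 CPM (control) and 1983 CPM (knockdown).

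**Figure D4:**
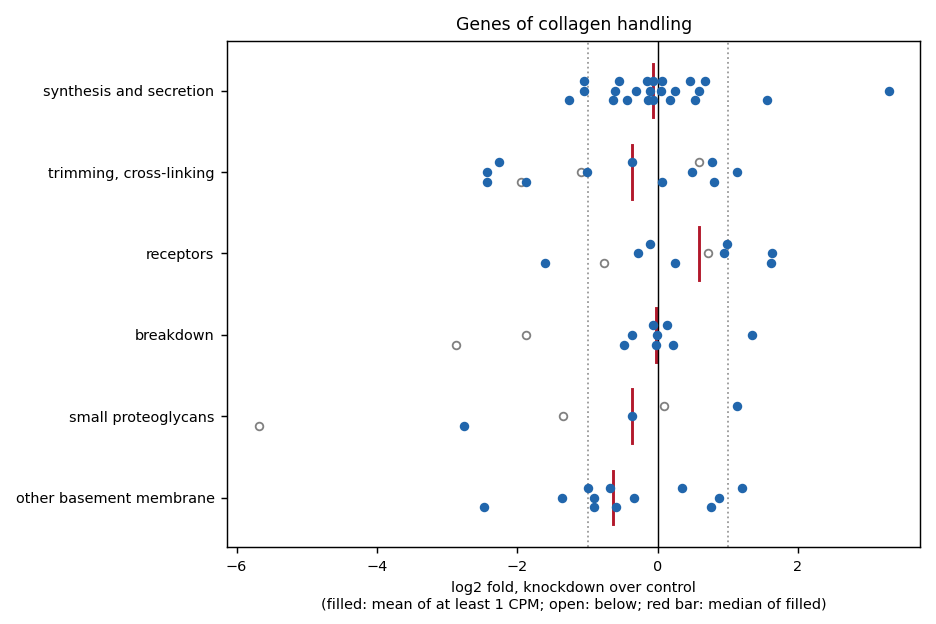
log2 fold, knockdown over control, of each gene in 6 lists of collagen handling, with genes of a mean of at least 1 CPM filled, lower ones open, and the median of the filled points as a red bar. The medians run from -0.63 for the other basement membrane proteins to 0.59 for the receptors, and the point furthest right is P4ha3 at 3.29.

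**Figure D5:**
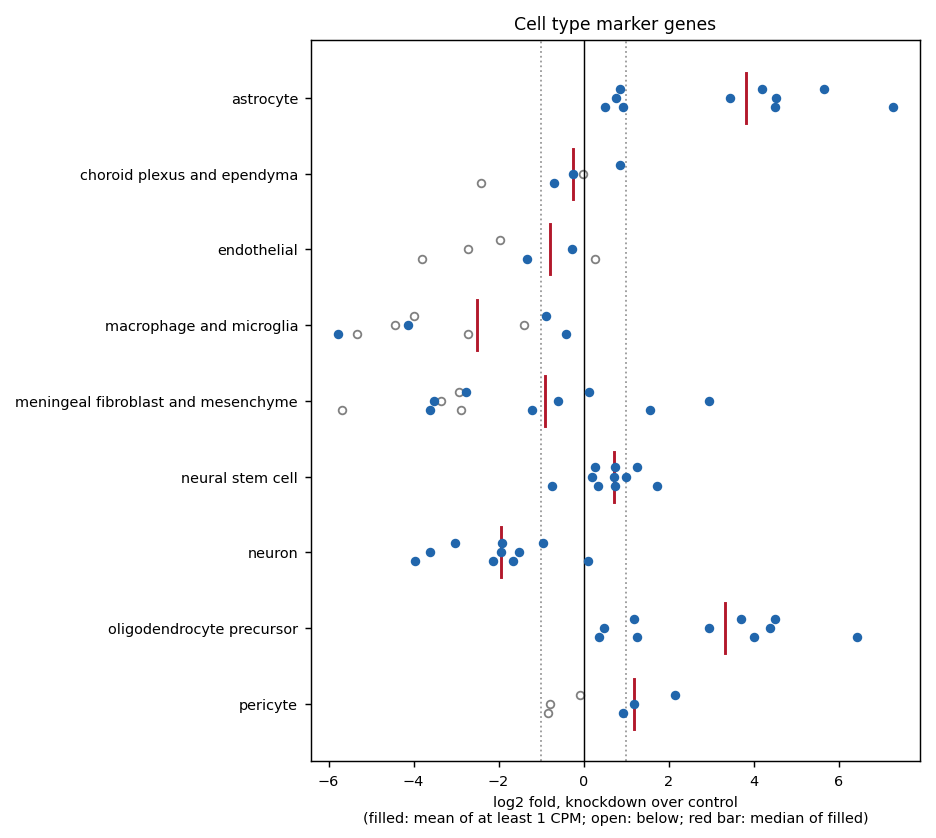
log2 fold, knockdown over control, of the marker genes of 9 cell types, drawn in the same way. All astrocyte and oligodendrocyte precursor points lie right of 0, neuron and macrophage medians lie left of it, and the fibroblast list has points on both sides.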

How the data were processed

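Messenger RNA was measured in 1 control and 1 knockdown library, which were the only samples and made the only comparison. The authors deposited 1 table whose raw counts are named as such per the file headers. Per the submitters' processing notes Bowtie2 2.2.3, TopHat2 2.0.12, HTSeq 0.6.0 and the build mm9 were used, with no role or order given, and the gene positions of the table are those of GRCm38. Strand use is not given in the sources used here, so reads of overlapping opposite genes cannot be told apart. The deposited CPM were used only as a scaling alternative. The deposited fold change (a ratio) and its deposited log2 were not used. The deposited p-values, whose test is not given in the sources used here, were not used either.

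Counts were scaled with TMM factors (edgeR 4.0.16; 1.018 for the control, 0.982 for the knockdown library). CPM and ratios are scaled counts. The log2 fold adds 0.5 to each count, and a gene counts as higher or lower at 2-fold and with a mean of at least 1 CPM. Intervals are exact conditional binomial (Clopper-Pearson) at 95% from scipy 1.17.1, and PCR copies make true error larger. With 1 library per group no p-value was computed. Exon lengths and coding sequences are from GENCODE M21, where 19557 of the 19595 gene IDs were found. Every collagen is named, with up to 4 members of each partner list by absolute log2 fold, and of each marker list those at either end and others after their values were seen. Members and lists were chosen with earlier results of these data known. The functional subgroups of the other collagens were set after values were seen. The calculation was tested on simulated data. Alternatives were DESeq2 1.42.0 size factors, total counts, the authors' CPM, filtering at 0 or 10 CPM, adding 5 to each count, calling at 1.5-fold and type IV alone as the basement membrane class.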

Additional observations from a re-analysis of the deposited data

How the results depend on the processing

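No paired analysis was possible because each group has 1 library, and for the same reason none could be left out in turn. Depth limits the 12 collagens under 1 CPM and Col9a1, whose control count was 4. Log2 folds of the 30 collagens past the minimum stayed inside their counting intervals under the other scalings and a prior count of 5 (120 of 120 values). Class totals under DESeq2 size factors did as well. A median has no such interval. Under these factors the median log2 fold was 0.04 for all collagens (0.05 in the main setting) and -0.17 for the fibrillar class (-0.15). It was 0.17 for the basement membrane class (0.19) and 0.35 for the others (0.37). The total of all collagens had a ratio of 1.25 with total-count scaling and 1.25 with the authors' CPM. The total of the others was 1.91 with types XV and XVIII moved into it. After the data were seen, totals were also computed per kilobase of exon and without the member of highest count. Per kilobase the ratio was 1.52 for all collagens, 0.757 for the fibrillar class and 2.65 for the others, and without Col9a3 that of the others was 1.74.

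With a minimum of 10 CPM, 3 collagens were higher and 1 lower, of which 1 and 1 were fibrillar and 2 and 0 others. At that minimum, 9.78% of all genes differed by 2-fold or more, either way. The medians were then -0.0019 in the basement membrane class and 0.98 in the others. With no minimum 5 others were lower and their median log2 fold was -0.10, against 0.37 with it. At 1.5-fold 1 basement membrane collagen was higher. Of the partner lists at a minimum of 10 CPM, synthesis had 1 lower, trimming 2 lower, receptors 1 higher and 0 lower, and the small proteoglycans 0 lower. With no minimum 2 breakdown genes and 3 small proteoglycans were lower. At 1.5-fold synthesis had 4 higher and 5 lower, trimming 3 higher, receptors 4 higher, and other basement membrane proteins 3 higher and 7 lower. Shares over all genes were not computed at 1.5-fold or with no minimum. The counts under those rules therefore show only how the calls move, and cannot be set against a background.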
